A study of Mus musculus with 4 samples.

Results

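Heat shock proteins and their DNAJ co-chaperones were followed in mouse bone marrow 8 h after a single intraperitoneal injection. The genes were all those with a symbol of the Hspa, Hspb, Hsp90, Dnaja, Dnajb or Dnajc series, together with Hspd1, Hspe1, Hsph1, the transcription factor genes Hsf1 and Hsf2 and the co-chaperone gene Bag3. They were taken by name, but this choice was made with earlier results of these data known. Of 75 protein-coding genes that match these names in RefSeq, 72 had a probe set of their own among the 19938 genes measured, and Hsf1, Hsp90ab1 and Hspa1b were not analysed here. Cells of C57BL/6N marrow came from animals given phosphate-buffered saline (PBS, 2 samples, replicates 1 and 3) or 50 µg lipopolysaccharide (LPS, 2 samples, replicates 1 and 2), the glycolipid of the outer membrane of Gram-negative bacteria, here from E. coli K12 and S. minnesota in equal parts. Each sample was hybridised to 1 Mouse Gene ST array, and no genetic change is named in any group. The sources used here name neither age nor sex, nor how many mice a sample came from. The p-values below therefore rest on the spread between these samples, which may be technical.

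Heat shock proteins are chaperones that bind unfolded or newly made proteins and release them folded. HSP70 proteins (Hspa genes) do so in cycles of ATP hydrolysis that are started by J-domain proteins (Dnaj genes), which also choose the client, and ended by exchange factors such as the HSP110 protein Hsph1 and Bag3. HSP90 acts later on kinases and receptors, HSP60 (Hspd1) and its lid HSP10 (Hspe1) fold proteins inside mitochondria, and small heat shock proteins (Hspb genes) hold aggregating proteins. The factor HSF1 raises the inducible cytosolic members through heat shock elements in their promoters, whereas Hspa5 (BiP), Hsp90b1 (GRP94) and their partners in the endoplasmic reticulum (ER) are raised through ER stress elements.

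After LPS 3 of the 72 genes rose and 0 fell. They were Hspa1a, the inducible HSP70, by 0.96 log2 or 1.94-fold, its exchange factor Hsph1 by 0.86 log2 or 1.82-fold, and the mitochondrial chaperonin Hspd1 by 0.47 log2 or 1.38-fold. A gene passed at a limma adjusted p under 0.05 over all 19938 genes. The 3 rises are 4.17% of the members, beside 2.39% of all genes that rose, and 1.27% of all genes fell, so the share that rose lies near the background and rests on 3 genes. At an unadjusted p under 0.05, 14 members (19.4%) were higher, beside 7.11% of all genes, and 7 (9.72%) were lower, beside 8.69%, so the lower share lies near the background. The unmoderated linear model called 0 of all 19938 genes in either direction, so its 0 members are not particular to this set. It had 9 members with an unadjusted p under 0.05, without a share over all genes to set beside them. In RNA from mixed marrow cells, a change in the number of cells of a type and a change in RNA per cell cannot be told apart. The median difference was 0.04 log2 over the 72 members and -0.01 over all genes. Positive values numbered 41 of the 72 members and 9470 of the 19938 genes, and negative ones 31 and 10468. The shares of all genes given here apply beside each count of a class or list below. In 26 members, or 36.1%, the lower LPS array exceeded the higher PBS array, beside 20.4% of all genes. In 15, or 20.8%, the order was the opposite, beside 24.5%. With 2 arrays in each group, the smallest two-sided p of an exact permutation test is 0.333.

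**Figure D1:**
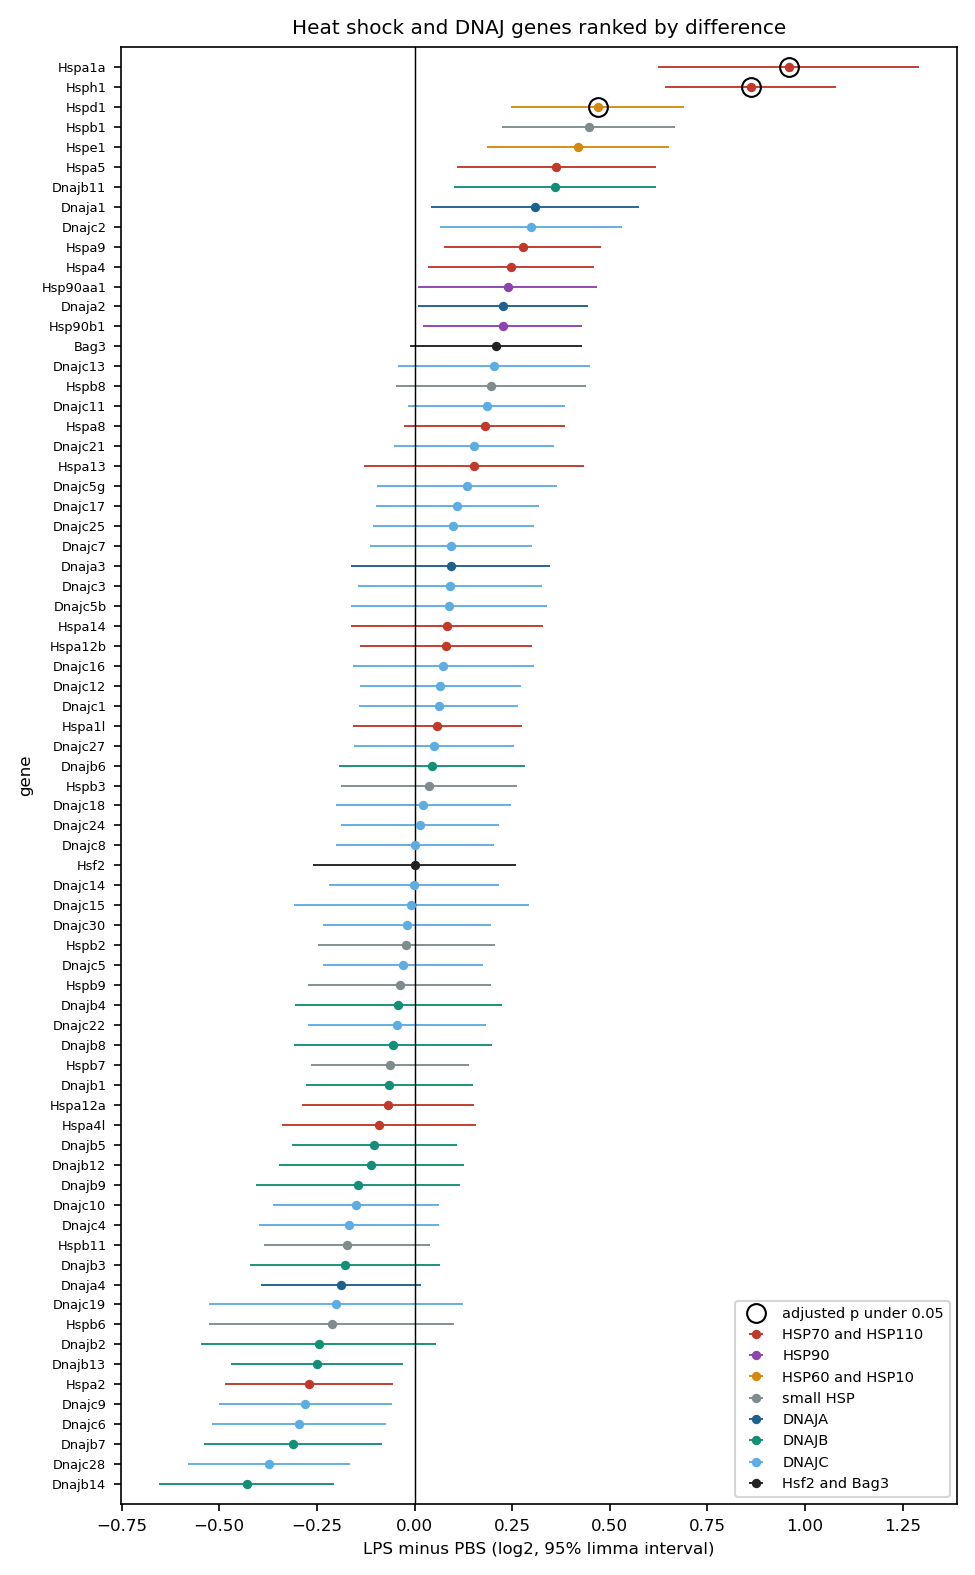
LPS minus PBS on the log2 scale (x axis) for each of the 72 genes (y axis), ranked, with the 95% interval of the limma fit as a bar, colour for the protein class and a ring around genes past the adjusted threshold. Hspa1a (0.96) and Hsph1 (0.86) stand to the right of all others, and the lowest value is that of Dnajb14 (-0.43).

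Start-site sequences are shown first for genes with the most positive differences that hold a heat shock element. The element was searched as GAANNTTC or TTCNNGAA, each its own reverse complement, in windows from 250 bases before to 50 after each start (RefSeq, GRCm38.p6). Windows were at hand for 59 members, and 16 of them, or 27.1%, held a match in at least 1 window, beside 15.4% of the 15614 genes with a window. All 3 genes that rose held one. Capitals mark the matches, and the stretches lie at chr17:34972228-34972285 (minus strand) for Hspa1a, chr5:149636351-149636380 (minus) for Hsph1, chr1:55088053-55088082 (plus) for Hspe1 and chr5:135887777-135887854 (plus) for Hspb1.
Hspa1a: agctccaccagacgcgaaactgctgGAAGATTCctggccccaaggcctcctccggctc
Hsph1: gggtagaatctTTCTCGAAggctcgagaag
Hspe1: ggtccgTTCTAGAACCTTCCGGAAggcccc
Hspb1: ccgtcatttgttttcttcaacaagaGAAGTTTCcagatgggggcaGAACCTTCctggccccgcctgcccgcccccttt
The Hspe1 stretch, with 3 overlapping matches, also lies before the start of Hspd1 on the opposite strand. The starts of these windows are 216 bases apart, so the HSP60 and HSP10 genes share it. A longer form with 3 alternating units, GAANNTTCNNGAA or TTCNNGAANNTTC, was found at 4 of the 59 members (6.78%) and at 0.564% of all genes with a window. The 4 were Hspd1, Hspe1, Hsph1 and Dnajb6. In Hsph1 it reads TTCTGGAAAGTTC and begins 37 bases after the start, at chr5:149636288-149636300.

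Genes with a match did not all have groups that lay apart. A stretch is shown for Dnajb4, whose groups overlapped, and for Dnaja1, whose groups did not overlap, the first at chr3:152193846-152193870 (minus) and the other at chr4:40722333-40722362 (plus).
Dnajb4: ttcgttcgctgTTCTAGAAagtaca
Dnaja1: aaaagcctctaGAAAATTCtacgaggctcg
Dnajb4, a J protein of the cytosol, had a difference of -0.04 (95% interval -0.31 to 0.22), and Dnaja1 had 0.31, neither of which passed. Dnajb6, with the 3-unit form, had 0.05 and overlapping groups. Among the 26 members whose LPS arrays both exceeded the PBS arrays, 20 had a window and 9 of these held the 2-unit match. Among the 15 with the opposite order, all had a window and 2 held it. These counts describe letters in a window and not sites bound by a factor.

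Hspa1a encodes the HSP70 that is scarce in unstressed cells and induced by heat and other stress. PBS replicates 1 and 3 read 7.56 and 7.87 on the log2 scale, and LPS replicates 1 and 2 read 8.83 and 8.51. The groups did not overlap, and the arrays of either group lay about equally far apart. PBS averaged 7.71 ± 0.22 and LPS 8.67 ± 0.23 (SD, n = 2 each), and the difference of 0.96 had an SE of 0.143 and an adjusted p of 0.0109 in limma. The adjusted p was 0.0859 when all 35556 probe sets entered the fit, and it ran from 0.000698 to 0.456 over the 10 alternatives, with 8 passing. Hspa1b is a near copy of this gene, and the start windows of the pair are the same at 296 of 300 bases. The Hspa1a value may hold signal from both, and the probe sequences were not examined. A further probe set, annotated to both genes and used for neither, read 8.77 and 8.66 in PBS and 9.44 and 9.26 in LPS. It was 0.64 higher after LPS (SE 0.106), with an adjusted p of 0.0853 in the limma fit of all probe sets.

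Hsph1, the large HSP110 chaperone that recharges HSP70 with ATP and keeps aggregates soluble, had the smallest adjusted p of the members. It read 9.19 and 9.07 in PBS, and 10.03 and 9.95 in LPS, in the same order of replicates as above and in all values that follow. The gap between the groups was several times the spread within either. Averages were 9.13 ± 0.09 for PBS and 9.99 ± 0.06 for LPS (SD, n = 2 each), a rise of 0.86 (SE 0.0939, adjusted p = 0.00221). It passed in 9 of the 10 alternatives, with adjusted p-values from 0.000667 to 0.321, the highest in the unmoderated linear model.

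None of the other 11 HSP70 and HSP110 genes passed. Hspa8, the constitutive HSP70 of the cytosol, read 13.22 and 13.29 in PBS and 13.46 and 13.41 in LPS, which is 0.18 higher without passing (interval -0.03 to 0.39). Its 3 probe sets gave 0.18 to 0.19. Hspa4, of the HSP110 branch, had 0.25 (adjusted p = 0.236), while its relative Hspa4l had -0.09. Hspa9, the HSP70 of mitochondria, read 11.16 and 11.19 in PBS and 11.47 and 11.44 in LPS. Its arrays lay close together within each group and apart between them, with a difference of 0.28 (SE 0.0863, adjusted p = 0.162). Hspa13 and Hspa14 had 0.15 and 0.08, and Hspa12a and Hspa12b, distant relatives of HSP70, had -0.07 and 0.08. The testis-enriched Hspa1l and Hspa2 had 0.06 and -0.27. Over the 13 HSP70 and HSP110 genes 2 rose, beside 2.39% of all genes, and the median was 0.15. Positive values were found in 10, beside 9470 of all 19938 genes.

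**Figure D2:**
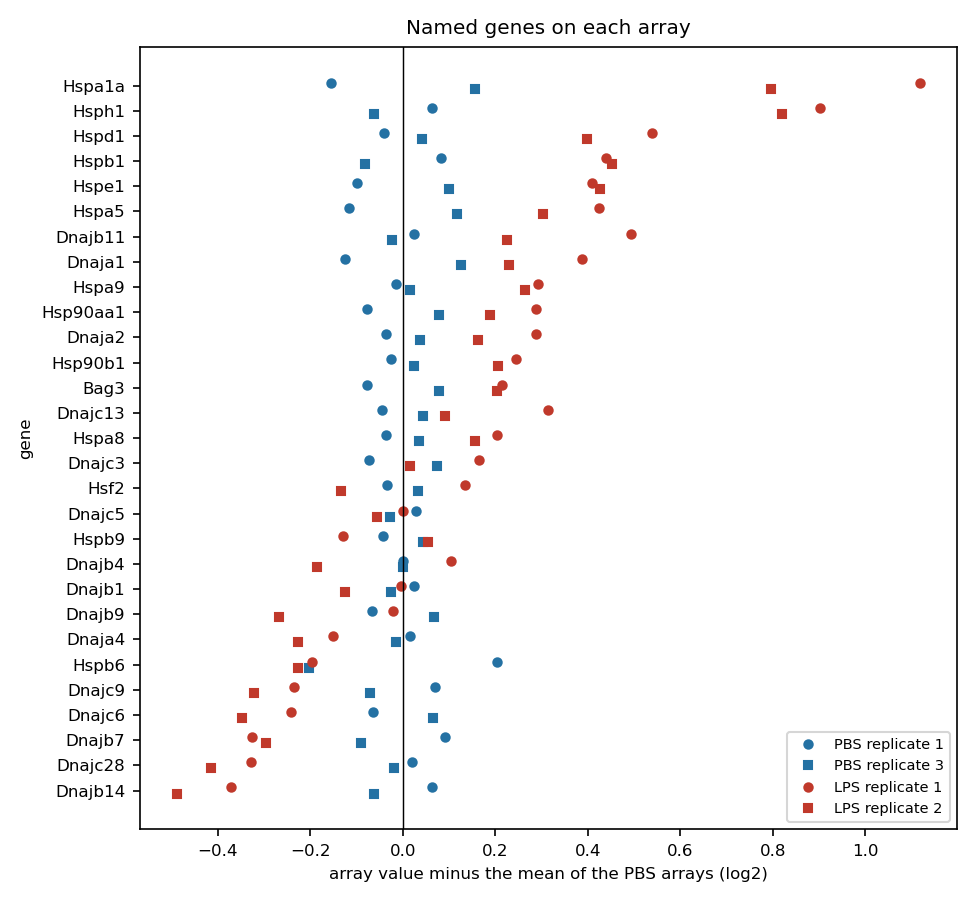
Value of each of the 4 arrays minus the mean of the PBS arrays, on the log2 scale (x axis), for the 29 genes named by rule (y axis), with blue for PBS, red for LPS, circles for replicate 1 of either group and squares for PBS replicate 3 and LPS replicate 2. From Hspa1a down to Hspa8 both red marks lie to the right of both blue ones, and from Dnajc9 down to Dnajb14 both lie to the left.

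The mitochondrial pair Hspd1 and Hspe1 gave nearly equal differences. Hspd1 read 11.12 and 11.20 in PBS and 11.70 and 11.56 in LPS, a rise of 0.47 (SE 0.0953, adjusted p = 0.0418). Hspe1 read 11.36 and 11.56 in PBS and 11.87 and 11.88 in LPS, which is 0.42 higher (adjusted p = 0.074) and did not pass. In both genes the LPS arrays lay above the PBS arrays. The second probe set of each gene gave 0.50 and 0.41. The call for Hspd1 lies close to the threshold: its adjusted p was 0.0814 without PBS replicate 1, 0.2 without LPS replicate 1, 0.0626 without LPS replicate 2 and 0.0649 with the mean of its probe sets. Over the 10 alternatives it ran from 0.026 to 0.419, with 4 passing, and that of Hspe1 from 0.0244 to 0.465, with 2 passing. Of the 10 members placed in mitochondria, 1 rose, beside 2.39% of all genes, 5 had positive values and the median was 0.04. Dnajc11, a J protein of the mitochondrial membranes, had 0.18, Dnaja3, the mitochondrial partner of Hspa9, 0.09, and Dnajc19, of the import motor, -0.20.

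Of the 8 genes with an Hspb symbol, counted here as small heat shock protein genes by name, Hspb1 had the highest value. Hspb1 (HSP25 in the mouse) read 7.83 and 7.67 in PBS and 8.19 and 8.20 in LPS, and both LPS arrays were higher. Its difference of 0.45 (SE 0.0954, interval 0.22 to 0.67) just missed the threshold with an adjusted p of 0.0502, and it passed in 5 of 10 alternatives (0.0246 to 0.423). Hspb8, the partner of Bag3 in clearing aggregates, had 0.20. The muscle-enriched Hspb2, Hspb3, Hspb6 and Hspb7 had values from -0.21 to 0.04, Hspb9 had -0.04 and Hspb11 -0.17. The value of Hspb6 was -0.41 without PBS replicate 3 and -0.01 without PBS replicate 1. None of the 8 passed. At an unadjusted p under 0.05 in limma 1 was higher and 0 lower, beside 7.11% and 8.69% of all genes. The unmoderated fit, which called 0 of all genes after adjustment, called 0 of these 8. Skeletal muscle also expresses several of these genes, and of 10 muscle markers 0 passed, with a median of -0.08. Their part in these values was not tested.

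The 2 measured HSP90 genes had positive values and did not pass. The stress-responsive cytosolic Hsp90aa1 read 12.07 and 12.22 in PBS and 12.44 and 12.33 in LPS, a difference of 0.24 (interval 0.01 to 0.47, adjusted p = 0.293), and its 3 probe sets gave 0.20 to 0.25. Hsp90b1, the HSP90 of the ER, read 12.06 and 12.11 in PBS and 12.33 and 12.29 in LPS, a difference of 0.23 (adjusted p = 0.259). In both genes the groups did not overlap.

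Among ER members, Hspa5 and its co-chaperone Dnajb11 had the highest positive differences, and the largest in size was the negative one of Dnajb14 (-0.43), described with the DNAJB genes. Hspa5 read 12.22 and 12.45 in PBS and 12.76 and 12.63 in LPS, which is 0.36 higher (SE 0.109, adjusted p = 0.15). Dnajb11, which delivers unfolded clients to Hspa5, read 9.86 and 9.82 in PBS and 10.33 and 10.06 in LPS, a difference of 0.36 (SE 0.111, adjusted p = 0.159). Both LPS arrays were higher in each gene, and Hspa5 passed only without PBS replicate 3 (0.48, adjusted p = 0.0399, with 0.0399 to 0.55 over its alternatives). Other J proteins of the ER had smaller or negative values. Dnajb9, an inhibitor of the stress sensor IRE1, had -0.14, Dnajc10, a disulfide reductase, -0.15, and Dnajc3, an inhibitor of the eIF2α kinase PERK, 0.09. Of the 13 ER members 0 rose and 0 fell, and the median was 0.07. At an unadjusted p under 0.05 in limma 3 were higher and 1 lower, beside 7.11% and 8.69% of all genes.

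The ER stress element, CCAAT and CCACG with 9 bases between them on either strand, was found at 3 of the 59 members with a window, Hspa5, Hsp90b1 and Dnajc3, and at 0.134% of all genes with one. Dnajb11, Dnajb9 and Dnajc10 had a window without a match. The element is shown in capitals for Hspa5 (chr2:34772000-34772068, plus) and Dnajc3 (chr14:118937802-118937870, plus), since only the first of these genes had groups that did not overlap.
Hspa5: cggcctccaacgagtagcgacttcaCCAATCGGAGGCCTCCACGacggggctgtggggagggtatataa
Dnajc3: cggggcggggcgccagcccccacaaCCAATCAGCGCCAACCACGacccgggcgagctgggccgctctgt

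Plasma cells are rich in ER chaperones, and their markers were read beside these genes. Of 8 plasma cell markers 0 passed, 4 were positive and 4 negative. At an unadjusted p under 0.05 in limma 4 were higher and 2 lower, beside 7.11% and 8.69% of all genes. The mean log2 level of the 8 was 8.74 and 8.78 on the PBS arrays and 8.72 and 8.87 on the LPS arrays. Sdc1, the plasma cell surface marker, had -0.22, Mzb1 -0.34, Jchain 0.26 and Xbp1, also a factor of ER stress, 0.29. Derl3 had 0.27, and both Derl3 and Xbp1 also stand in the list of unfolded protein response genes below. The part of plasma cells in the values of the ER members was not tested.

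J proteins are grouped by structure into A, B and C classes, and none of them passed. Of the 4 DNAJA genes, the main partners of cytosolic and mitochondrial HSP70, 3 were positive. Dnaja1 read 10.67 and 10.92 in PBS and 11.18 and 11.02 in LPS (0.31, adjusted p = 0.241), and its second probe set gave 0.39. Dnaja2 had 0.23 and Dnaja4 -0.19. A probe set shared by Dnaja1 and a microRNA gene gave 0.03 with overlapping groups and was not used.

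In the DNAJB class 11 of 13 genes had negative values, beside 10468 of all 19938 genes, with a median of -0.11, and 0 passed. At an unadjusted p under 0.05 in limma 1 was higher and 3 lower, beside 7.11% and 8.69% of all genes. Dnajb14, a J protein of the ER membrane, had the lowest value of all members. It read 8.92 and 8.80 in PBS and 8.49 and 8.37 in LPS, a difference of -0.43 (SE 0.0964, adjusted p = 0.0601), and passed in 1 of 10 alternatives, without PBS replicate 3 (adjusted p = 0.036, with 0.036 to 0.437 over all of them). A pair of probe sets annotated to both Dnajb14 and Pin4 gave -0.10 and -0.09 and were not used. Dnajb1, the HSF1-inducible partner of Hspa1a and Hspa8, read 9.40 and 9.35 in PBS and 9.37 and 9.25 in LPS. Its groups overlapped, and the difference of -0.06 had an interval of -0.28 to 0.15, which lies wholly below the interval of 0.64 to 1.08 for Hsph1. Dnajb2, Dnajb12, Dnajb5, Dnajb3, Dnajb8 and Dnajb13 had -0.25, -0.11, -0.10, -0.18, -0.05 and -0.25. Dnajb7 had -0.31 at a mean level of 4.96, under the lower quartile of genes. Dnajb6, a suppressor of protein aggregation, had 0.05 on its own probe set, and 4 probe sets shared with a predicted gene gave 0.06 to 0.08.

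DNAJC genes, a mixed class that holds little in common beyond the J domain, had a median of 0.04 and 0 past the threshold. Of 28, 17 were positive, beside 9470 of all 19938 genes. At an unadjusted p under 0.05 in limma 1 was higher and 3 lower, beside 7.11% and 8.69% of all genes. The highest was Dnajc2, which acts on the ribosome with Hspa14, at 0.30 (adjusted p = 0.195). Dnajc13, an endosomal protein, had 15 probe sets, all positive, from 0.10 to 0.32, and 0.20 on the one used. Dnajc5, the cysteine string protein of vesicles, had -0.03 and Dnajc7, which binds HSP70 and HSP90, 0.09. The lowest were Dnajc28 (-0.37, adjusted p = 0.0741), the clathrin uncoating factor Dnajc6 (-0.30) and Dnajc9 (-0.28), a histone co-chaperone. The other members of the class lay between Dnajc19 and Dnajc11.

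**Figure D3:**
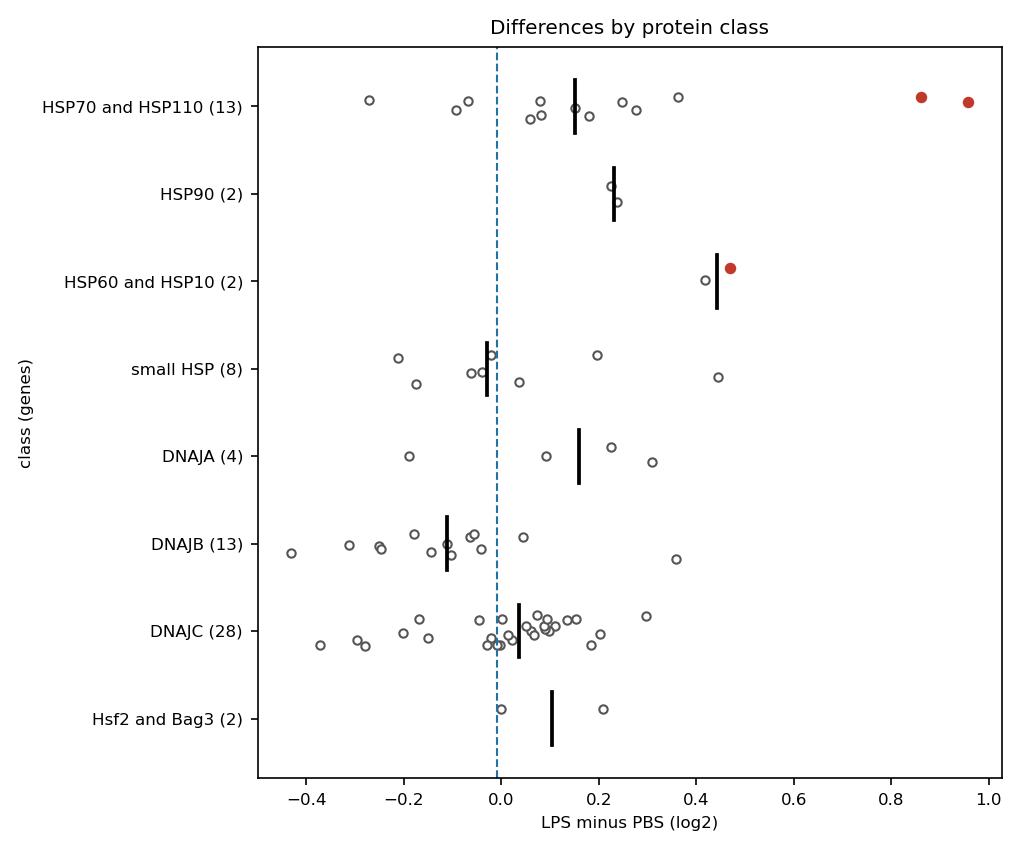
LPS minus PBS on the log2 scale (x axis) for each gene of 8 classes (y axis, number of genes in brackets), with filled red points for genes past the adjusted threshold, a black bar at the class median and a dashed line at the median of all genes (-0.01). DNAJB genes lie mostly to the left of the dashed line (median -0.11), and both HSP60 and HSP10 genes lie to the right (0.42 and 0.47).

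Of the regulators, Hsf2, a partner of HSF1, read 8.21 and 8.28 in PBS and 8.38 and 8.11 in LPS, with a difference of 0.00 (interval -0.26 to 0.26). Bag3, an HSF1 target that links HSP70 to autophagy, read 8.52 and 8.67 in PBS and 8.81 and 8.80 in LPS. The groups did not overlap, and the difference of 0.21 (adjusted p = 0.342) did not pass. Over the 13 measured members listed as stress-inducible cytosolic chaperones, 2 rose and 0 fell, beside 2.39% and 1.27% of all genes. The median was 0.21, and 9 were positive, beside 9470 of all 19938 genes. The 4 negative values were those of Dnajb1, Dnajb4, Dnajb5 and Hspa4l, and none of these passed.

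Other genes of protein folding were read for comparison. Of all 19938 genes 9470 were positive, 2.39% rose and 1.27% fell. At an unadjusted p under 0.05 in limma 7.11% were higher and 8.69% lower. Of 27 genes listed with the co-chaperones of HSP70 and HSP90 outside the family names, 0 passed, with a median of 0.09. At an unadjusted p under 0.05 in limma 8 were higher and 2 lower. The list also held Cryab and Hsbp1. Stip1, which joins HSP70 to HSP90, had 0.28 and Ptges3, the HSP90 co-chaperone p23, 0.15. The cytosolic chaperonin TRiC and prefoldin had 12 of 13 genes positive and 0 past the threshold (5 higher and 0 lower at an unadjusted p under 0.05 in limma), with a median of 0.21, Cct2 at 0.13 and Cct6a at 0.35. Of 28 genes of the unfolded protein response 2 rose, 0 fell and the median was 0.17 (11 higher and 1 lower at an unadjusted p under 0.05 in limma). Those that rose were Ddit3 (CHOP) at 0.50 (adjusted p = 0.0381) and Trib3 at 0.44 (adjusted p = 0.0486), which act in the PERK branch. The largest difference of the list was that of Creld2, 0.53, which did not pass (adjusted p = 0.0765 in limma). The PERK gene Eif2ak3 had -0.36 (adjusted p = 0.089) and did not pass either. Of 12 mitochondrial quality control genes 0 passed (1 higher and 0 lower at an unadjusted p under 0.05 in limma), with Yme1l1 at 0.01, Htra2 at 0.10 and a median of 0.05. Of 16 further HSF1-responsive genes 1 rose, Atf3, and the median was 0.17 (4 higher and 1 lower at an unadjusted p under 0.05 in limma). Counted once each, with the immediate-early genes below, the 108 genes of these lists held 6 that rose (5.56%, beside 2.39% of all genes) and 0 that fell, with 74 positive values and a median of 0.11. At an unadjusted p under 0.05 in limma 30 (27.8%) were higher, beside 7.11% of all genes, and 6 (5.56%) lower, beside 8.69%.

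**Figure D4:**
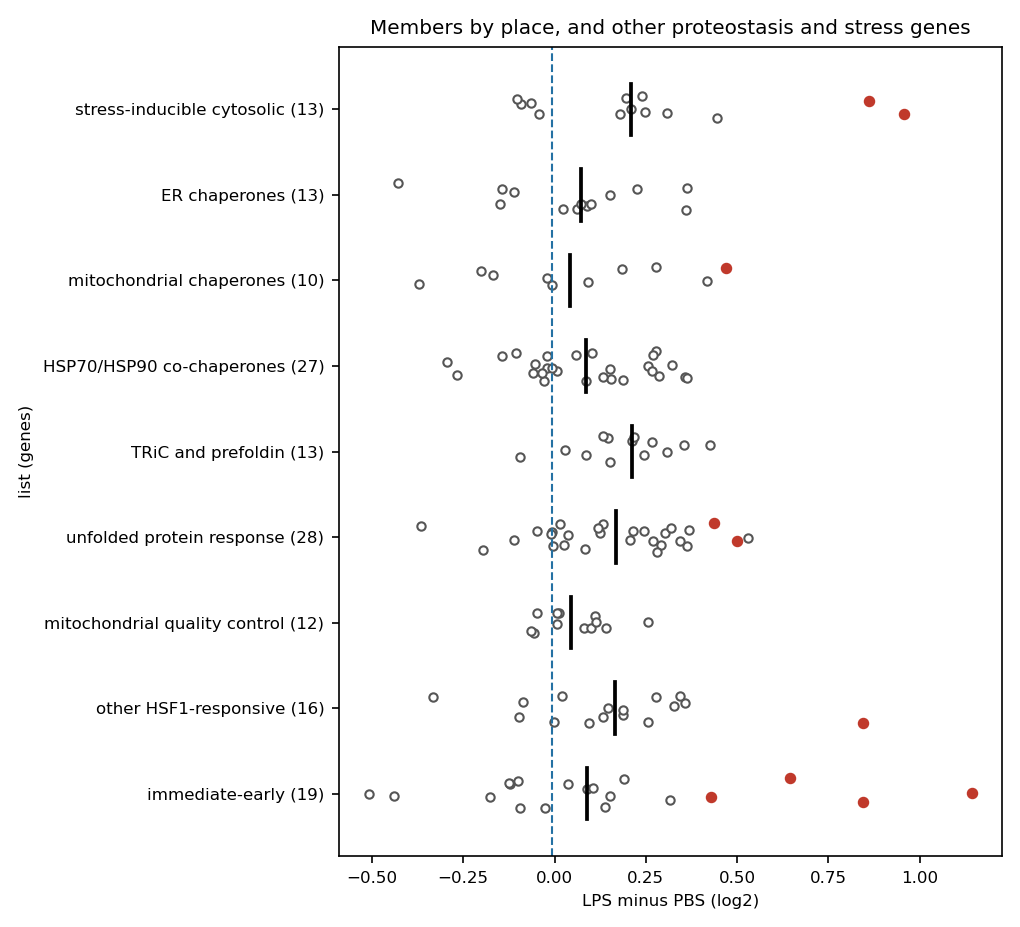
LPS minus PBS on the log2 scale (x axis) for members by place in the cell (first 3 lists) and for other genes of protein folding and stress (lower 6 lists; y axis, number of genes in brackets). Filled red points passed the adjusted threshold, black bars are list medians and the dashed line is the median of all genes (-0.01). The medians run from 0.04 for mitochondrial chaperones to 0.21 for stress-inducible members and TRiC with prefoldin, and 4 of the 19 immediate-early genes are filled.

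Immediate-early genes, which handling of cells also raises, were read beside Hspa1a. Of 19, 4 rose and 0 fell, beside 2.39% and 1.27% of all genes. At an unadjusted p under 0.05 in limma 5 were higher and 2 lower, beside 7.11% and 8.69% of all genes. Those that rose were Jun (1.14, adjusted p = 0.000804), Atf3 (0.85, adjusted p = 0.00175), Ier3 (0.65) and Egr1 (0.43). Fos had 0.04 and Dusp1 -0.44 without passing. The mean log2 level of the list was 8.69 and 8.51 on the PBS arrays and 8.68 and 8.77 on the LPS arrays. The groups overlapped in this mean. The part of handling in the chaperone values was not tested.

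The LPS arrays were also compared with each other. LPS replicate 1 read higher than LPS replicate 2 in 51 of 72 members, or 70.8%, beside 50.3% of all genes, with a median difference of 0.07 between these arrays. In the 26 members whose LPS arrays both exceeded the PBS arrays this held for 21. PBS replicate 3 read higher than PBS replicate 1 in 20 of these 26, beside 37 of all 72 members and 46.0% of all genes. B-cell markers ran the other way, with a mean level of 9.71 in LPS replicate 1 and 10.01 in LPS replicate 2. Their mean was 10.23 on both PBS arrays. Of 13 B-cell markers 3 fell, beside 1.27% of all genes. Of these 3, Dntt and Cr2 read higher in LPS replicate 1. Plasma cell, erythroid and muscle marker means were also lower in LPS replicate 1. Means of neutrophil (12.67 and 12.48), T-cell (8.04 and 7.90) and natural killer cell markers (8.33 and 8.17) were higher in LPS replicate 1 than in 2. The part of these differences in the chaperone values was not tested. Over all 4 arrays the median of all genes was 8.01 to 8.03. Marrow markers were well measured: the neutrophil gene S100a8 read 13.32 to 13.44, the erythroid gene Alas2 12.73 to 12.90 and the B-cell gene Cd79a 11.75 to 12.27. Over all genes 2.39% rose and 1.27% fell, to be set beside the marker counts that follow. Of 15 neutrophil markers 0 rose and 2 fell, and of 15 monocyte and macrophage markers 2 rose and 4 fell. Of 9 T-cell markers 0 rose and 2 fell. Of 10 natural killer cell markers 3 rose and 2 fell, of 10 erythroid and 6 megakaryocyte markers 0 passed, and of 9 endothelial and 10 stromal markers 1 each fell. The part of these cells in the chaperone values was not tested.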

How the data were processed

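RNA of 4 marrow samples was read on 1 array each. The authors deposited 1 value for each probe set and array, on a log2 scale as the range of the values shows, and used RMA per the submitters' processing notes. No RMA version is named there. Of 35556 probe sets, 21789 had 1 gene symbol, 1621 had several and 12146 had no gene named here. The brightest probe set stood for a gene, which left 19938 genes. Low values were kept, and 68 of the 72 members had a mean above the lower quartile of genes. LPS and PBS were compared with limma 3.58.1 in R 4.3.3 (lmFit, eBayes, two-sided, no covariate), with Benjamini-Hochberg adjustment over all genes and 95% intervals. Residual degrees of freedom were 2 and prior degrees of freedom 5.59, and the number of arrays limits the precision. The fit was tested on simulated data.

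The members, lists and motifs were chosen with earlier results of these data known. Named members were those past the threshold, 17 core genes of which 14 were measured, the 3 with the highest mean in each symbol class, and the 5 highest and 5 lowest that did not pass, 29 in all. Other members are given by value or range. In each further list up to 4 genes past the threshold were named or, with none, the 2 of highest mean level. Some genes stand in 2 lists. Marker genes beyond these rules, Creld2, Eif2ak3, Cryab and Hsbp1 were named after their values were seen. Sequences are from RefSeq (GRCm38.p6), matched by symbol. Figures were drawn with matplotlib 3.10.9.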

Additional observations from a re-analysis of the deposited data

How the results depend on the processing

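The count of members that rose was 3. With all probe sets in the fit it was 1 (1.39% of members, beside 1.23% of all genes). At an adjusted p under 0.01 it was also 1 (1.39%, beside 1.43%). At an adjusted p under 0.10 it was 5 (6.94%, beside 3.19%). An intensity trend with robust eBayes gave 5 as well (6.94%, beside 2.52%). The unmoderated linear model called 0 members and 0 of all genes, and 9 members had an unadjusted p under 0.05 there. With 1 array left out a group holds a lone array, so no counts of members are given for those fits. In the fits of all 4 arrays the count of members that fell was 0, except at an adjusted p under 0.10. There it was 2 (Dnajb14 and Dnajc28), where 478 of 19938 genes fell. Dnajb14 had -0.49 without PBS replicate 3. Other settings with all 4 arrays gave 3 or 4 rises. These were 4.17% to 5.88% of the members tested, beside 2.38% to 3.22% of all genes tested. The median over members was 0.021 to 0.064 with 1 array left out and 0.048 after centring the arrays. Companion genes that rose numbered 6, and 3 to 8 with 1 array left out (3 without LPS replicate 1), and those that fell 0 to 2. Of 29 named members, 3 changed sign under some alternative, and none of these 3 passed in any (Dnajb4, Hsf2 and Hspb9). The causes were not tested. A lone array in a group is assumed to vary like the other group. No paired analysis was possible because the groups share only replicate number 1.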
